A study of Mus musculus with 2 samples.

Results

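The colony-stimulating factors and their receptors were examined as a set of 10 genes, of 22910 named genes on the array. The members were the ligands Csf1, Il34 and Csf2, the receptor tyrosine kinases Csf1r, Flt3 and Kit, and the cytokine receptor chains Csf2ra, Csf2rb, Csf2rb2 and Csf3r. They were found through the transcript accessions of the gene probes, which gave 16 probes with 1 spot each per array. RNA was taken from bone marrow monocyte-derived primary macrophages of C57BL/6 mice at day 5, and from bone marrow-derived self-renewing macrophages of the same strain after passage 4. Both cultures were grown with 100 ng/ml recombinant human M-CSF, were labelled as male, and the labels name no other factor. The primary macrophages were the adherent cells of the first culture. The self-renewing macrophages grew out of colonies that appeared when most cells had stopped dividing, and were bulk cultures rather than clones, as the methods describe them unless stated otherwise. Each cell type was measured on 1 array, so no spread between replicates is known and nothing was tested.

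Macrophage colony-stimulating factor, or M-CSF, is encoded by Csf1 and drives the survival, growth and differentiation of macrophages. It acts through Csf1r, a receptor tyrosine kinase that is also the receptor of IL-34, encoded by Il34. Granulocyte/macrophage colony-stimulating factor, or GM-CSF, is encoded by Csf2 and binds a specific α chain, Csf2ra, which signals with the common β chain, Csf2rb. Mice carry a second β chain gene, Csf2rb2, whose product serves the IL-3 receptor. Csf3r is the receptor of granulocyte colony-stimulating factor and is best known from neutrophils. Kit and Flt3 are kinases of the Csf1r family that mark stem and progenitor cells, with Kit kept by mast cells and Flt3 by dendritic cells.

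The 2 arrays were alike in signal. Over gene probes the 75th percentile of intensity was 433.6 and 446.1, primary array first. By the flag of the scanner software 34807 and 33095 probes were well above background, and 0 spots were saturated. Levels are given as background-corrected intensity, in arbitrary units, with the error estimated by the scanner software, which covers the spot and not the culture. Differences are in log2, self-renewing minus primary, after each array was set to its own 75th percentile. Each probe binds with its own strength, so the intensities of different probes do not give the relative amounts of their transcripts, and a sum of intensities over a list is only a sum of signal. Of 10 general macrophage markers, 10 were well above background on both arrays, the brightest being Cd68 and Lyz2. Of 6 Y-linked genes, the primary macrophages had 0 above this limit and the self-renewing macrophages had 4, although both samples were labelled male. The sex of the donors and the cell type therefore cannot be told apart, although no member gene lies on a sex chromosome in the GRCm38.p6 gene table.

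The sequence before the start of transcription was available for 7 of the 10 members. It was missing for Csf1r, Csf2rb and Il34, which were therefore not searched for motifs. Shown are the 250 bases before the start from RefSeq (GRCm38.p6), read 5′ to 3′ on the strand of the gene. Csf1 was chosen as the member measured on both arrays that differed by over 2-fold. The others were chosen as receptor chains that did not. Capitals mark motifs that were searched on both strands and do not overlap here: GAGGAA, a core bound by PU.1 and other ETS factors, and GGGCGG, the GC box. A match on the other strand stands as its reverse complement, as for the ETS core of Csf2rb2 and the GC box of Csf2ra. A RUNX motif, written TGTGGT, had no match in these 4 windows. The same held for a motif of C/EBP factors, written TTGCNNAA. Nor did any of them hold the core promoter motif TATAAA.
Csf1, chr3:107760470-107760719, minus strand: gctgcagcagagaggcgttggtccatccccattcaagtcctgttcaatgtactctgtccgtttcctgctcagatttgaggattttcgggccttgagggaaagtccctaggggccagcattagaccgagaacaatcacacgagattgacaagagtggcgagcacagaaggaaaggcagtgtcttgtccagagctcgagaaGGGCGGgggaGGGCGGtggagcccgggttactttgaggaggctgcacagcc
Csf2ra, chr19:61228419-61228668, minus strand: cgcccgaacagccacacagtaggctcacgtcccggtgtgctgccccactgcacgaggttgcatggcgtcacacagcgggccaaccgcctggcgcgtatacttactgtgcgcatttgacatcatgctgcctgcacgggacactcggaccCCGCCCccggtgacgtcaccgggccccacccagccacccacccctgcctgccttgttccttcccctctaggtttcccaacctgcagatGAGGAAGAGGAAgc
Csf2rb2, chr15:78305722-78305971, minus strand: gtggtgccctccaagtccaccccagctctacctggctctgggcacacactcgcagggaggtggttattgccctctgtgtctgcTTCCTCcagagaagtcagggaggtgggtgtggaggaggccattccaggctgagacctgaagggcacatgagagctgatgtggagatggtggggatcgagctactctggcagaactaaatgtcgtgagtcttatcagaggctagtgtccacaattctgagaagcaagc
Csf3r, chr4:126024409-126024658, plus strand: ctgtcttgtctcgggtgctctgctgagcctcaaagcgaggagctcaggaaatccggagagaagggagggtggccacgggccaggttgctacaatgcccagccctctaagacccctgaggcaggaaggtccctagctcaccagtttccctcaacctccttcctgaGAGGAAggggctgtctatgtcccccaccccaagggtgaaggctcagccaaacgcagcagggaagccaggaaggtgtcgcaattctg

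The Csf1 window held GC boxes at 51 and 41 bases before the start and no ETS core. The ETS core was found in the windows of 4 of 7 members, the receptors Csf2ra, Csf2rb2, Csf3r and Kit, against 23.3% of all 32851 windows of this length in the table. In Csf2ra it stood at 14 and at 8 bases before the start, next to each other. The GC box was found in 4 of 7 members, Csf1, Csf2, Kit and Csf2ra, against 32.7% of all windows, and the C/EBP motif in 1, Csf2 (9.56% of all windows). The RUNX and core promoter motifs were found in 0 of 7 (14.05% and 12.4% of all windows). A match in these letters describes the window and was not tested as a binding site.

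Of the 10 members, 9 were detected, meaning well above background in 1 or both cultures, against 67.7% of all named genes, and 7 were so on both, against 61.1%. Kit and Flt3 were detected in primary macrophages only, as were 7.61% of detected genes, and Csf2 in neither culture. For a gene seen in 1 culture only, the least difference that the data allow is given: on the other array its level was set to the lowest signal well above background, or to its own signal where that was higher. In the self-renewing macrophages 0 of the 9 detected members were higher by 2-fold or more, against 4.76% of 15515 named genes. Csf1 and Kit were at least 2-fold lower, 2 of 9, against 8.38% of named genes. In all, 739 named genes were higher and 1300 lower at 2-fold, but 1035 were higher and 1069 lower with the authors' own scaled values. The other 7 detected members were within 2-fold, Flt3 by its least difference. The 7 members measured on both arrays had a median of 0.02 log2, beside 0.01 log2 for all genes so measured. In bulk RNA, fewer cells of a type and less RNA per cell cannot be told apart.

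**Figure D1:**
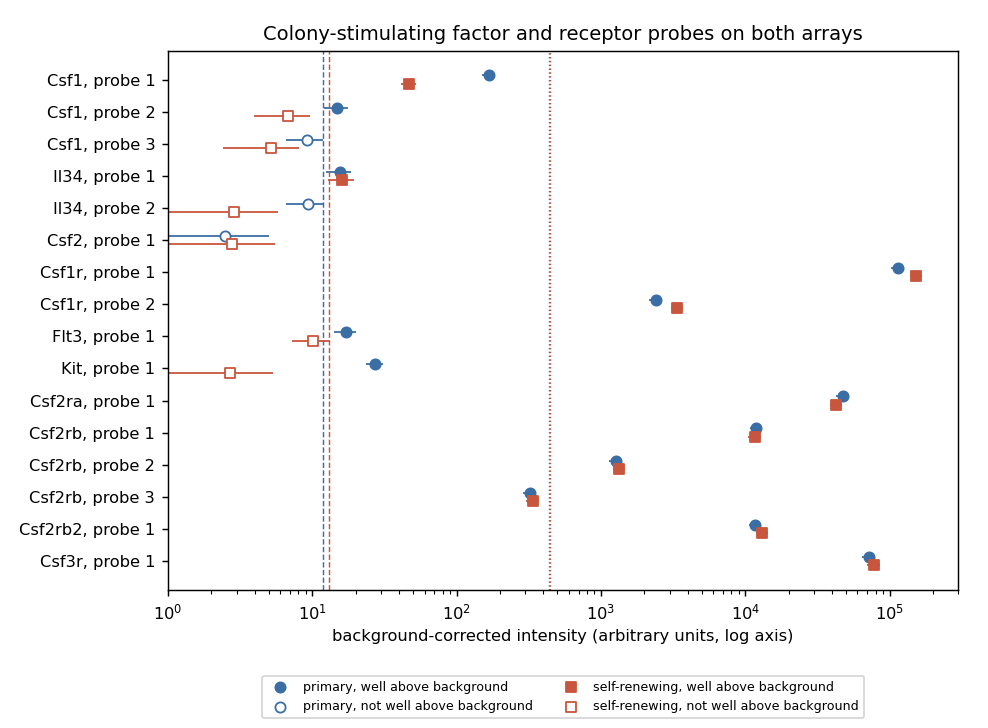
Background-corrected intensity (arbitrary units, log axis) of the 16 probes for the 10 genes on the primary (circles) and self-renewing (squares) arrays, with the scanner software's error as bars, filled where well above background; probes of a gene are numbered from the brightest. Dotted lines mark each array's 75th percentile (433.6 and 446.1) and dashed lines its lowest signal well above background (11.81 and 13.16). The points of a pair lie close together for Csf1r and the cytokine receptor chains, and apart for Csf1 probe 1 and Kit.

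Among the ligands, Csf1 was lower in the self-renewing macrophages. Its brightest probe gave an intensity of 166.9 ± 16.9 (scanner error) in the primary and 46.8 ± 5.43 in the self-renewing macrophages, which was 3.67-fold lower, or -1.88 log2 with a scanner error of 0.22 log2. Of the 14003 genes measured on both arrays, 3.36% differed by as much in either direction. The second Csf1 probe gave 14.9 ± 2.88 and 6.77 ± 2.84, and was detected in primary macrophages only. It was at least 1.16-fold lower. The third probe, at 9.27 and 5.22, was well above background on neither array. The lower level of Csf1 therefore rests on 1 probe.

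Il34, the other ligand of Csf1r, was at the edge of detection in both cultures. Its brighter probe gave 15.6 ± 3.00 in the primary and 16.2 ± 3.28 in the self-renewing macrophages, a difference of 0.02 log2 with a scanner error of 0.40 log2. The second Il34 probe was not well above background on either array, at 9.36 and 2.88. Csf2, which encodes GM-CSF, gave 2.49 ± 2.50 and 2.77 ± 2.77. Neither value was above its own error, so a transcript of Csf2 was not detectable on these arrays.

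Csf1r was well above background on both arrays by both of its probes. The brighter probe gave 113750.4 in the primary and 153275.8 in the self-renewing macrophages, which was 1.31-fold higher, or 0.39 log2 with a scanner error of 0.20 log2. The second probe gave 2394 and 3394, a difference of 0.46 log2. Both probes were higher in the self-renewing macrophages by more than the scanner error, but 35.8% of genes measured on both arrays differed by at least as much as the brighter probe. Over 5077 genes with several probes measured on both arrays, the differences given by probes of a gene had a root mean square SD of 0.33 log2.

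The kinases related to Csf1r were near background. Kit, the receptor of stem cell factor, gave 27.2 ± 3.66 in the primary and 2.68 ± 2.69 in the self-renewing macrophages, by its 1 probe. It was at least 2.13-fold lower in the self-renewing macrophages, where its signal did not exceed its error. This bound fell below 2-fold with a model-based background correction, with quantile normalization and with the authors' scaled values, at -0.42, -0.85 and -0.90 log2. Flt3 gave 17.1 ± 3.00 and 10.1 ± 2.91, and was at least 1.33-fold lower. Both values lay near the lowest signals called well above background, 11.8 and 13.2.

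The cytokine receptor chains differed little between the cultures. Csf2ra, the α chain of the GM-CSF receptor, gave 47518 in the primary and 42773 in the self-renewing macrophages, a difference of -0.19 log2. Csf2rb, the common β chain, was measured by 3 probes. They gave 11945 and 11704, 1271 and 1339, and 321.9 and 336.4, with differences of -0.07, 0.03 and 0.02 log2. The 3 probes of Csf2rb thus differed by under 0.1 log2 although they spanned a wide range of brightness. Csf2rb2 gave 11748 and 13135, a difference of 0.12 log2. The β chain genes are close relatives and neighbours, and probe sequences were not used here, so how far a probe of the one also reads the other is uncertain. Csf3r gave 71955 and 77977 by its 1 probe, a difference of 0.08 log2. All 6 probes of these 4 genes lay between -0.19 and 0.12 log2, within the scanner error of 0.20 log2.

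The share of genes past 2-fold was also taken among probes of high signal. Of 1898 named genes at least 4 log2 above the 75th percentile on average, a level chosen after the values were seen, 4.79% differed by 2-fold or more. Csf1r, Csf2ra, Csf2rb, Csf2rb2 and Csf3r were among these genes and 0 of the 5 did. Across all genes measured on both arrays the share was 9.78%, and 13.1% with bounds included. The differences of the 5 receptors ranged from -0.19 to 0.39 log2, beside a median of 0.01 log2 for all genes measured on both arrays.

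**Figure D2:**
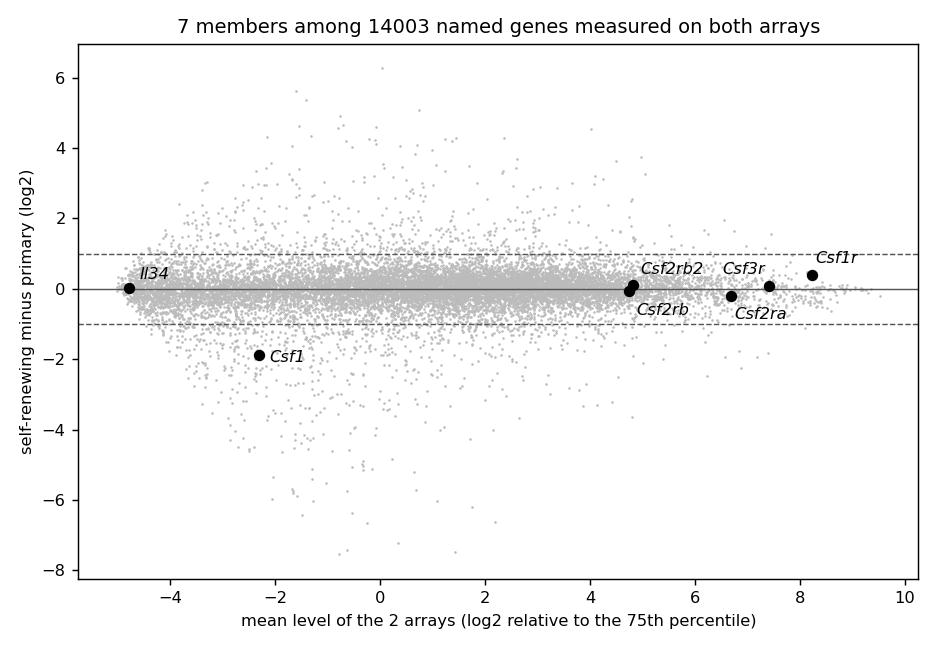
Difference between self-renewing and primary macrophages (log2, vertical axis) against the mean level of the 2 arrays (log2 relative to the 75th percentile, horizontal axis) for 14003 named genes measured on both arrays (grey), with the 7 members so measured in black. Dashed lines mark 2-fold; Csf1 lies below them at -1.88 log2 and the other 6 members lie between them.

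Markers of other cell types were set beside the receptors that those cells are known for. Of 10 neutrophil markers, 9 had a named probe. All 9 were detected in primary macrophages, against 4 in the other culture. Their summed intensity was 45790 and 2939, and 8 of the 9 were at least 2-fold lower, against 8.38% of all named genes. The brightest, S100a9 and S100a8, calcium-binding proteins abundant in neutrophils, were at least 1990-fold and 797-fold lower. Elane, neutrophil elastase, was the exception, at 3602 and 2671. Csf3r differed by 0.08 log2 between the same RNAs, by its 1 probe. The part of neutrophils in the value of Csf3r was not tested.

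Of 10 mast cell and basophil markers, 9 had a named probe, 5 were well above background in the primary and 3 in the self-renewing macrophages, with summed intensities of 183.5 and 140.8. Cpa3, Ms4a2, Mcpt4 and Gata2 were well above background on neither array. Cma1 (15.6 and 6.56) and Mcpt8 (15.7 and 3.11) were so in primary macrophages only, as was Kit, at 27.2 and 2.68. Fcer1a was so on both arrays, at 17.25 and 20.89. Tpsb2 and Hdc were the brightest of the list, at 84.8 and 50.1 in the primary and 89.9 and 20.3 in the self-renewing macrophages. Of 8 stem and progenitor cell markers, 7 were well above background in the primary and 6 in the self-renewing macrophages. Their summed intensity was 4733 and 22050. Of the 7 detected genes 1 was higher past 2-fold and 2 were lower past it, beside 4.76% and 8.38% of all named genes. The probes with the highest signal were those of Ly6a, also induced by interferon, at 2611 and 21107, and Procr, at 1609 and 322.9. The other gene past 2-fold was Cd34, at 95.8 and 14.7. The part of such cells in the value of Kit was not tested.

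Of 8 dendritic cell markers, 5 were well above background in the primary and 3 in the self-renewing macrophages, with summed intensities of 94530 and 118200. Of the 5 detected genes 3 had a difference above 0 and 2 below 0. In each direction 1 passed 2-fold, beside 4.76% higher and 8.38% lower of all named genes. The probes with the highest signal were those of Siglech, at 83903 and 91973, and Bst2, which interferon induces in many cells, at 10357 and 26170. Zbtb46, a factor of conventional dendritic cells, was at 0.62 log2, at a low signal of 26.17 and 41.46 by 1 of 2 probes. Ccr7, of mature dendritic cells, was at least 17.8-fold lower, at 227.0 and 9.287. The markers Xcr1, Clec9a and Dpp4 were well above background on neither array. Cd209a (19.96 and 6.795) was so in primary macrophages only, as was Flt3, at 17.1 and 10.1. The part of dendritic cells in the value of Flt3 was not tested. The 6 eosinophil markers, 5 and 3 of which were well above background, summed to 641.8 and 365.2, with Ccr3 (252.1 and 258.2) and Siglecf (188.7 and 20.5) the brightest. Of the 5 detected genes 0 were higher past 2-fold and 3 were lower, beside 4.76% and 8.38% of all named genes. These 3 were Siglecf, Prg2 (77.67 and 3.332) and Ear1 (59.33 and 5.658), the last 2 detected in primary macrophages only. Of 8 stromal cell markers, which matter here as stromal cells make Csf1 and Kitl, 3 were well above background in the primary and 2 in the self-renewing macrophages. Lepr (4183 and 3915) and Col1a2 (52.9 and 88.1) led the list, and Col1a1, Col3a1, Dcn, Pdgfra and Pdgfrb were well above background on neither array. The 8 lymphocyte markers had 5 and 4 genes well above background, summing to 3551 and 3449, with Cd4 and Cd3e the brightest at 2419 and 1015 in the primary macrophages. Of the 5 detected lymphocyte genes 0 were higher past 2-fold and 2 were lower, beside the same shares of all named genes. The macrophage list itself summed to 359000 and 478000. Past 2-fold it held Mertk, higher at 2.23 log2, and Fcgr1, lower at -1.76 log2. These were 10% of the list each, beside 4.76% higher and 8.38% lower of all named genes.

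**Figure D3:**
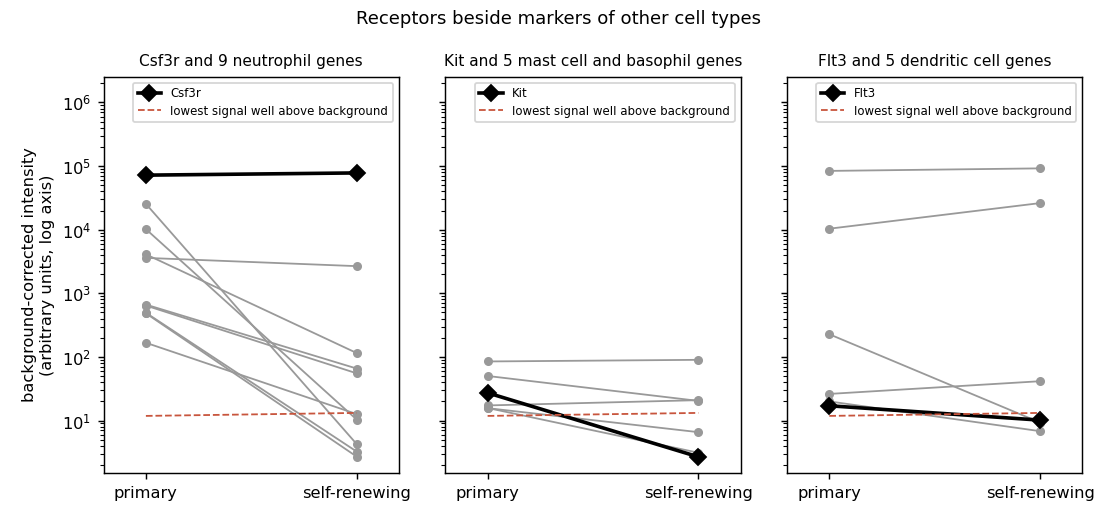
Background-corrected intensity (arbitrary units, log axis) on the 2 arrays of Csf3r, Kit and Flt3 (black), each beside the detected markers of the cell type it is known from (grey lines, 1 per gene); the dashed line is the lowest signal well above background. Csf3r is at 71955 and 77977, and 8 of 9 neutrophil markers are at least 2-fold lower in the self-renewing macrophages. Kit and Flt3 start near the dashed line and end under it.

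Further ligands and receptors of these families were read from a list of 11 genes, 6 of which were well above background on both arrays and 5 on neither. Il3ra, the α chain that joins the β chains to form the IL-3 receptor, gave 7013 in the primary and 1199 in the self-renewing macrophages. It was 6.02-fold lower, and its 2 probes moved the same way, at -2.59 and -2.34 log2. Kitl, the ligand of Kit, gave 400.2 and 898.0 and was 2.18-fold higher, with 3 probes in that direction. Flt3l, the ligand of Flt3, differed by -0.24 log2, and Sdc1, a second binding partner described for IL-34, by -0.47 log2. Il5ra differed by 0.09 log2 and Il3 by -0.0004 log2, both at low signal. Il5ra gave 86.27 and 94.64 and Il3 gave 36.27 and 37.3, each by 1 of 2 probes. Csf3, Il5, Ptprz1 and the kinases Pdgfra and Pdgfrb were well above background on neither array. At 2-fold 1 of the 6 detected genes was higher and 1 lower, 16.7% each, beside 4.76% and 8.38% of all named genes. For these 6 genes the median was -0.12 log2 and ranged from -0.19 to 0.07 log2 over 8 other ways of processing the arrays.

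Of 30 genes that act next to these receptors in signalling, 30 were well above background on both arrays, and 27 differed by under 2-fold. The list had 3.33% of its genes higher and 6.67% lower at 2-fold, beside 4.76% and 8.38% of all named genes. The 1 gene at least 2-fold higher was Stap2, an adaptor that binds Csf1r, at 77.0-fold by 1 probe, a difference that was known when the list was made. The 2 genes at least 2-fold lower were Fgr, a Src family kinase of myeloid cells, at 13.2-fold, and Cblb, a ubiquitin ligase that limits receptor signalling, at 3.71-fold, by 2 probes each. Among those within 2-fold, Ptpn6, the phosphatase SHP-1, was at 0.79 log2. Of the signal transducers of the β chains, Jak2 was at -0.05 log2, Stat5a at -0.11 log2 and Stat5b at -0.10 log2. The median of the list was 0.03 log2.

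Of 12 genes known to respond to M-CSF, 12 were well above background on both arrays, 0 were at least 2-fold higher and 1 was at least 2-fold lower. These are 0% and 8.33% of the list, beside 4.76% and 8.38% of all named genes. The lower gene was Ccnd2, cyclin D2, which gave 1101 in the primary and 112.4 in the self-renewing macrophages, 10.1-fold lower, with 3 probes the same way. Ccnd1, cyclin D1, was at 0.65 log2 in the other direction, within 2-fold. The median of the list was -0.32 log2, beside 0.01 log2 for all genes measured on both arrays, with 4 genes above 0 and 8 below. Over the 8 alternatives it ranged from -0.375 to -0.13 log2. As all 12 genes were measured on both arrays, a change of filter could not move it. Scaling by a constant could only shift it, so this range is no measure of how firm it is.

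Of 12 genes induced by GM-CSF or through STAT5, 11 were detected, 0 were at least 2-fold higher and 3 were at least 2-fold lower, against 8.38% of all named genes. Itgax, the integrin CD11c, gave 5180 and 596.6 and was 8.93-fold lower. Pparg, a nuclear receptor that GM-CSF induces in alveolar macrophages, gave 5021 and 1247 and was 4.14-fold lower. Irf4, which gave 184.5 in the primary and was not well above background in the other culture at 8.15, was at least 14.4-fold lower. Itgax and Pparg each rest on 1 probe measured on both arrays. The feedback inhibitors of this pathway were all within 2-fold and differed in sign. Cish was at 0.67 log2, Socs2 at 0.36 log2, Socs3 at 0.96 log2 and Socs1 at -0.69 log2. The signals of Cish (53.3 and 87.22) and Socs2 (16.31 and 21.58) were low, and Socs2 rests on 1 of 2 probes. Over the 11 genes the median stood at -0.01 log2, and its sign varied over the alternatives, from -0.24 to 0.27 log2. It was the value of Ccl17, which at 14.46 and 14.77 lay near the lowest signals well above background, 11.81 and 13.16. Over the 10 genes measured on both arrays the median was 0.18 log2.

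Of 13 transcription factors known to control myeloid receptor genes, 13 passed the background limit in the primary culture and 12 in the self-renewing culture. Cebpe, a factor of late granulocyte development, gave 822.9 and 13.6 and was 62.2-fold lower. Gfi1, a repressor of granulocytic cells, gave 62.7 and 2.79 and was at least 4.90-fold lower. These 2 genes were lower together with the neutrophil markers given above, and the part of neutrophils or their precursors in them was not tested. The other 11 differed by under 2-fold, so that 0% of the list was higher and 15.4% lower, beside 4.76% and 8.38% of all named genes. Spi1, which encodes PU.1, was at 0.23 log2, Runx1 at 0.36 log2, Cebpa at 0.65 log2, Cebpb at 0.40 log2 and Irf8 at -0.07 log2, though the 3 probes of Runx1 did not all move one way. The median of the list was 0.36 log2, beside -0.02 log2 for all detected genes. Of 10 genes for the shedding and cleavage of receptors from the cell surface, 9 had a named probe and were detected, 8 of them on both arrays. By measured or least difference 0 passed 2-fold in either direction, against 13.1% of all named genes. Timp3 was detected in primary macrophages only, at 24.97 and 2.918. It was at least 1.95-fold lower, so a difference past 2-fold remains possible for it. Adam17, the protease that sheds Csf1r, was at 0.31 log2 and Rhbdf2, which serves Adam17, at 0.88 log2, with a list median of 0.06 log2.

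**Figure D4:**
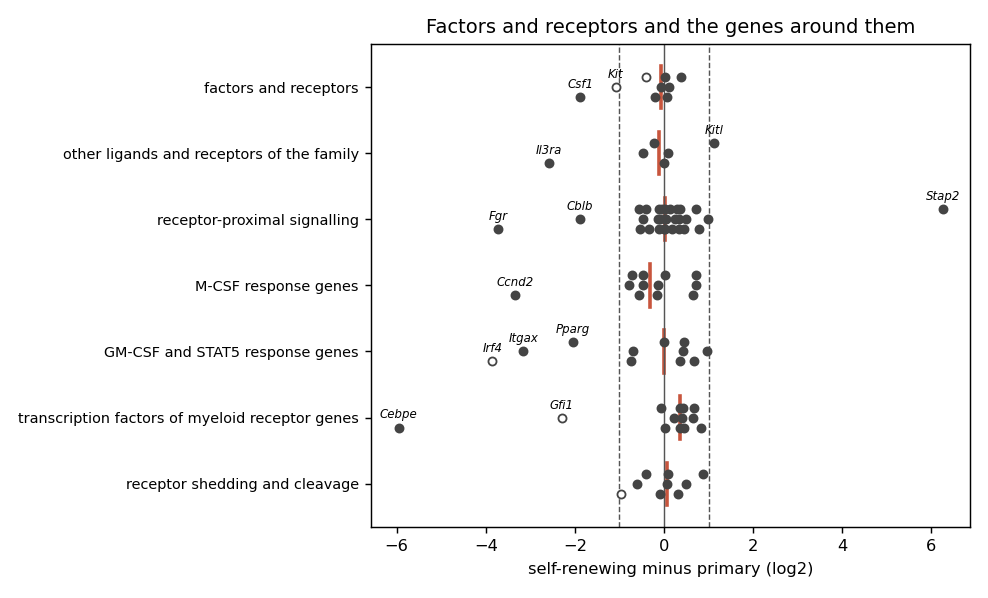
Difference between self-renewing and primary macrophages (log2, horizontal axis) of each detected gene in the set of factors and receptors and in 6 lists of genes around them, with open points for bounds and a red bar at each median; dashed lines mark 2-fold and genes past them are named. Most points lie between the dashed lines, with medians from -0.32 to 0.36 log2.

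The members' values depended on the processing mainly where the signal was low. Over the 8 alternatives, Csf1r ranged from 0.37 to 0.58 log2, Csf3r from 0.02 to 0.26 log2 and Csf2ra from -0.21 to -0.0046 log2. Csf2rb ranged from -0.09 to 0.12 log2, above 0 only with the authors' scaled values, and Csf2rb2 from 0.10 to 0.31 log2. Csf1 was at least 2-fold lower under each alternative, from -1.89 to -1.05 log2, with the smallest value from the mean over its probes. That mean takes in the least difference of the second Csf1 probe, -0.22 log2. Il34 ranged from -0.0018 to 0.29 log2.

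**Figure D5:**
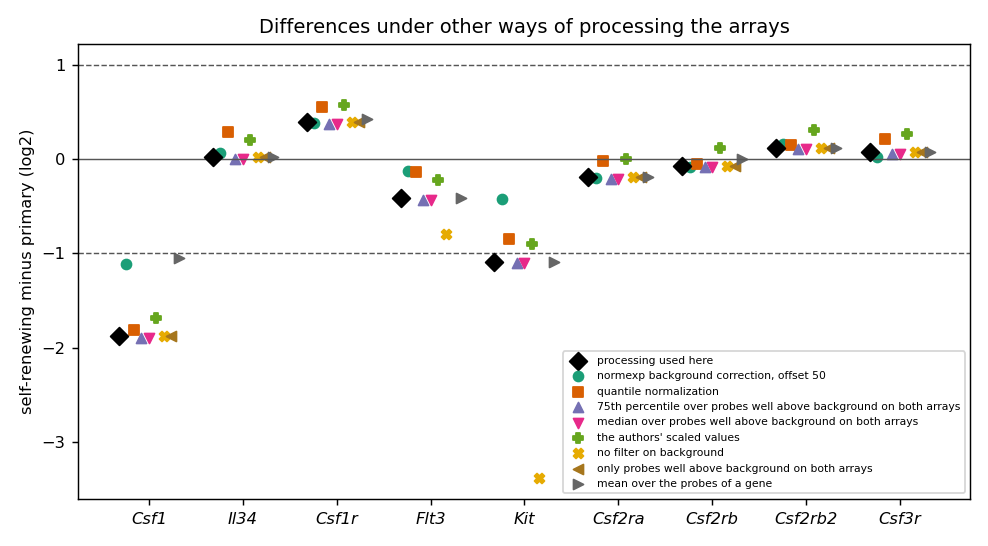
Difference between self-renewing and primary macrophages (log2, vertical axis) of the 9 detected members under the processing used here (black diamonds) and 8 alternatives (other symbols); dashed lines mark 2-fold. The receptor chains and Csf1r keep between the lines throughout, Csf1 stays below them, and Kit crosses the lower line, from -3.38 to -0.42 log2. The lowest value of Kit is the plain difference without a filter on background, and its other values are least differences.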

How the data were processed

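RNA of 1 culture of each cell type was hybridised to Agilent SurePrint G3 mouse arrays with 1 dye, on 1 slide. The authors deposited scanner output of Feature Extraction 11.5.1.1, with a background-subtracted, spatially detrended intensity, its error and flags per spot, and a second table that equals this intensity times 1 constant per array, 1.07 and 1.19; how these were chosen is not given in the sources used here. Here log2 intensity was set to 0 at the 75th percentile of an array's gene probes, without control spots and outlier spots (63 gene spots on each array). Accessions named 58.3% of 56598 probes through a GRCm38.p6 table. A gene was represented by its brightest probe well above background on at least 1 array. Differences were read by size, with 2-fold as threshold, since 1 array per cell type gives no replicates; the number of arrays limits precision. The calculation was tested on simulated data. Members and lists were chosen with earlier results of these data known. From each pathway list the text names genes past 2-fold whose probes measured on both arrays moved one way (at most 5 per direction), and from each marker list the 2 brightest; any other gene was picked with its values in view. The 8 alternatives changed background correction, scaling, filter or probe averaging. Probe sequences and proteins were not used here. The analysis used Python 3.11.15, numpy 2.4.6, pandas 2.3.3, matplotlib 3.10.9, R 4.3.3 and limma 3.58.1.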

Additional observations from a re-analysis of the deposited data

How the results depend on the processing

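With no replicates, shifts were read against 0.33 log2, the SD among the differences of probes for a gene. Of 70 values of single members under 8 alternatives, 65 shifted by less and 5 by more. None changed from 2-fold in one direction to the other. Many of these shifts were fixed by construction. Scaling by a constant per array moved all members alike, and a change of filter left members measured on both arrays as they were. Averaging over probes left members with 1 detected probe as they were. The 65 values are therefore no measure of how firm the differences are. The number of members at least 2-fold lower was 1 in place of 2 with the normexp background correction (offset 50), with quantile normalization, with the authors' scaled values, and with only probes well above background on both arrays. In each case Kit was the gene lost, and Csf1 the gene kept. Over all named genes, 429 were higher and 750 lower with normexp, which by construction draws dim signals together, and 1192 higher and 2336 lower without a filter on background. With only probes well above background on both arrays 782 were lower. The authors' scaled values moved the median of genes measured on both arrays from 0.01 to 0.19 log2, so that 49.2% of genes past 2-fold were higher, in place of 36.2%. The medians of the 6 pathway lists moved by less than 0.33 log2 under all 8 alternatives. No paired analysis was possible because the 2 cultures share no pair of replicates. Signal over background limits what can be said of Csf2, Il34, Flt3 and Kit.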

Other observations

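Several members lie in gene order beside relatives. The 2 nearest protein-coding genes with a named probe on each side of a member gave 34 neighbours that are no members, of which 24 were detected in 1 or both cultures. At 2-fold, 1 neighbour was higher and 3 were lower, beside 4.76% and 8.38% of all named genes. The other 20 were within 2-fold, and the median of the 24 was 0.03 log2. The gene that rose was Flt1, a receptor of vascular endothelial growth factor, which lies 2 genes from Flt3 and was 30.3-fold higher, while Pan3 between them was at 0.10 log2. The 3 that were lower were Gstm5 near Csf1 (2.57-fold), Tst near Csf2rb (2.49-fold) and P4ha2 beside Csf2 (2.29-fold). Kdr, the neighbour of Kit, was at -0.41 log2, and Pdgfra and Pdgfrb, the neighbours of Kit and Csf1r, were well above background on neither array. The rule for neighbours was chosen after the members' values were seen.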
